A study of Mus musculus with 9 samples.

Results

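The matrix proteases of the MMP and ADAMTS families and their TIMP inhibitors were followed in the left ventricle of mice with and without delta-sarcoglycan. Members were all protein-coding genes whose mouse symbol is Mmp, Adamts or Timp followed by a number, which gave 45 of the 49671 gene identifiers counted, 22 of them Mmp genes, 19 Adamts genes and 4 Timp genes. A further symbol, Mmp1a, matched but is annotated as a polymorphic pseudogene and was left out. The study sequenced polyadenylated RNA of 9 left ventricle libraries. Wild-type mice (WT) received vehicle (2 libraries) or ifetroban (2 libraries), and mice with a knockout labelled dSG, the short name of delta-sarcoglycan, which Sgcd encodes (KO), received vehicle (2 libraries) or ifetroban (3 libraries). Ifetroban blocks the receptor of thromboxane, a prostanoid that contracts vessels and activates platelets. Delta-sarcoglycan is part of the complex that ties the muscle cell membrane to the matrix outside it, and its loss causes limb-girdle muscular dystrophy with cardiomyopathy. Age, sex, strain and dose are not given in the sources used here.

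MMPs are zinc proteases that are made as inactive proenzymes and cut collagens, laminins, proteoglycans and growth factor carriers once a propeptide is removed. ADAMTS proteases are secreted relatives with thrombospondin repeats that process procollagens or cut the large proteoglycans versican and aggrecan. TIMPs bind the active site of these enzymes and block it. In the injured heart the balance of these proteins shapes scar formation and chamber dilation.

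Gene counts ran from 21299748 to 31394548 per library. Sgcd, the targeted gene, was at 7.49 to 18.5 CPM (read counts scaled to the normalised library size) in the 5 KO libraries. In WT it was at 28.9, 31.2 and 33.1 CPM in 3 libraries and at 11.1 CPM in the library labelled WT vehicle replicate 1, within the KO range. Every direction drawn below from that library carries this limit. KO vehicle replicate 1 also stood apart, with the liver marker list at 76.3 CPM summed against 0.238 to 6.22 CPM in the other 8 libraries. Long transcripts were relatively low in 4 libraries and high in the other 5. The 4 were replicate 1 of WT vehicle, of KO vehicle and of KO ifetroban, and replicate 2 of KO vehicle. Not every member that moved between these classes is given by class. For some members, genotype differences are also given within these classes. Those values are differences of mean log2 CPM (prior count 2), a measure that shrinks low genes more than edgeR's fold change does, and they stand beside the same measure over all 9 libraries. The low class holds 3 KO libraries and 1 WT library, WT vehicle replicate 1. The labels do not say that libraries of a group came from different animals, so the p-values describe the spread among these libraries, which may be technical. Cardiomyocyte markers summed to 59693 to 61795 CPM in WT and 48487 to 55707 CPM in KO. Of the 9 listed genes, Nppa was higher in every KO library (363 to 1278 against 208 to 279 CPM). The others overlapped between genotypes. Among them was Myh6, the largest part of the sum, at 15972 to 24445 CPM in WT and 11236 to 22415 CPM in KO. In such bulk tissue, fewer cells of a type and less RNA per cell cannot be told apart.

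Of the 45 members, 35 passed the filter on low counts and were tested among 15261 genes. The 10 that did not were Mmp1b, Mmp7, Mmp10 and Mmp20, with no read in any library, and Mmp21, Mmp25, Mmp27, Adamts13, Adamts16 and Adamts18, with at most 8 reads in any library. A count of 0 allows up to 3 reads in a library (0.0956 to 0.141 CPM), for counting error only. The filter was passed by 3 members with fewer than 2 WT libraries over its threshold of 0.401 CPM, namely Mmp8 (0 WT and 5 KO libraries), Mmp24 (1 WT and 2 KO) and Adamts20 (1 WT and 4 KO). Those 3 could only be tested because of KO libraries, so counts over the 35 are not counts over all members.

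Levels between members were compared per length, in TPM, which divides counts by exonic length and scales to a fixed total. Timp2 had the highest median, 71.1 TPM, followed by Mmp15 at 53.8, Timp3 at 50.3 and Mmp2 at 41.1 TPM. The ranges of these 4 genes over the 9 libraries overlapped (Timp2 44.0 to 107, Mmp15 24.0 to 81.9, Timp3 43.4 to 90.2 and Mmp2 26.4 to 60.8 TPM). Such ranges do not compare the genes within a library. Timp2 and Mmp15 changed order between libraries, as did Mmp15 and Timp3. Timp3 was above Mmp2 in every library except KO ifetroban replicate 2 (50.3 against 51.6 TPM). Timp1 came next at a median of 23.5 TPM with by far the widest range, from 2.46 TPM in a WT library to 811 TPM in KO vehicle replicate 1. Adamts1, at a median of 20.1 TPM, was the highest of the Adamts genes, and Mmp3 and Mmp14 were at 7.57 and 9.72 TPM. The 4 TIMPs together held 37.1% to 49.3% of the members' summed TPM in WT and 47.0% to 79.1% in KO, the highest in KO vehicle replicate 1.

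**Figure D1:**
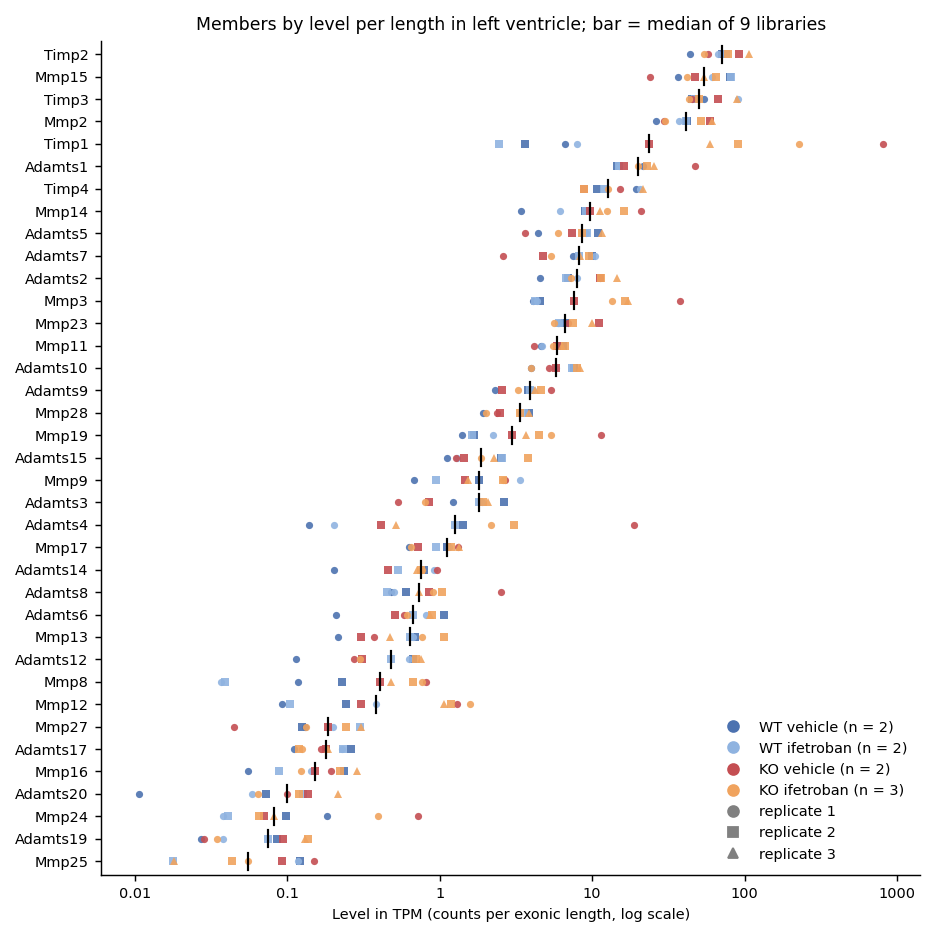
Level per length (TPM, log axis) of the 37 members with a median above 0, 1 point per library, coloured by group and shaped by replicate; the bar is the median of the 9 libraries and libraries at 0 are not drawn. Timp2, Mmp15, Timp3 and Mmp2 lead with medians of 41.1 to 71.1 TPM, and Timp1 has the widest range.

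Several members lie in a cluster on chromosome 9, and some of its start sites carry a short motif of the AP-1 factors, the Fos and Jun proteins that act downstream of growth factors and cytokines. The 5 promoters shown here belong to the proteases of that cluster that were tested, Mmp3, Mmp12, Mmp13 and Mmp8, and to Timp1. Each runs from 250 bases before to 50 bases after the start site in RefSeq (build GRCm38.p6), written 5′ to 3′ on the gene's own strand, with capitals marking a match to TGAGTCA on either strand.
Mmp3, chr9:7445572-7445871, plus strand: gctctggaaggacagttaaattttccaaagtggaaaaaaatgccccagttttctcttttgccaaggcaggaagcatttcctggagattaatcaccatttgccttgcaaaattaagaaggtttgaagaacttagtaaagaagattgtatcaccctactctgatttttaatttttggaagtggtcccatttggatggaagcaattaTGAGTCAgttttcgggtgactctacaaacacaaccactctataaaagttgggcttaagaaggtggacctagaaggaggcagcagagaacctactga
Mmp12, chr9:7347124-7347423, plus strand: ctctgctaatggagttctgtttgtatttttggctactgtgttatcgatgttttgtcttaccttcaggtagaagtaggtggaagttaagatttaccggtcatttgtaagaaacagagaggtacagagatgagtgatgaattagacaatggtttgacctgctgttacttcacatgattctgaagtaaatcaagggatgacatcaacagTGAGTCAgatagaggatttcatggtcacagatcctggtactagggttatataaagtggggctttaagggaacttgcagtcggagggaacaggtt
Mmp13, chr9:7272264-7272563, plus strand: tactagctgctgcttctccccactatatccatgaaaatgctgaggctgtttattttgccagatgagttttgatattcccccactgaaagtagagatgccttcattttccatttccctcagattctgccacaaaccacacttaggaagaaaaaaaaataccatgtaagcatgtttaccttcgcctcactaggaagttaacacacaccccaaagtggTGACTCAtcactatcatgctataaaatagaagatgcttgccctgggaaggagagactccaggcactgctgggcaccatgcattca
Mmp8, chr9:7558179-7558478, plus strand: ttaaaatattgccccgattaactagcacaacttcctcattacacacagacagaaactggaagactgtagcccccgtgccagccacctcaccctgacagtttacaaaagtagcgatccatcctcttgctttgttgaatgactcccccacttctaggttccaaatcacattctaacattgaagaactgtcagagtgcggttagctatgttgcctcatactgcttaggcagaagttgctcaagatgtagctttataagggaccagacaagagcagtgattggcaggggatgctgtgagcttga
Timp1, chrX:20869916-20870215, plus strand: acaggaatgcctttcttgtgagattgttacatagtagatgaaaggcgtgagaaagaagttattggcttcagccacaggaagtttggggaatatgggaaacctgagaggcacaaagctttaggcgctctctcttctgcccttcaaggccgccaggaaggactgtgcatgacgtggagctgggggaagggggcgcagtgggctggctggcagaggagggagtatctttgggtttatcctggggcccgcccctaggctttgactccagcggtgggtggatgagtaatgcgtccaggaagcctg

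The motif TGAGTCA, searched on both strands, was found in 5.20% of 32851 promoters of this length and in 6 of the 34 promoters of the 31 members with a sequence (17.6%). All 6 belong to the chromosome 9 cluster, Mmp1b, Mmp3, Mmp7, Mmp10, Mmp12 and Mmp13, with the first base of the motif 35 bases before the start site in Mmp13, 44 in Mmp12 and 46 in Mmp3. The TATAAA motif was in 10 of the 34 (29.4%) against 13.6% of all promoters. No match to TGAGTCA lies in the windows of Mmp8, Mmp20, Mmp27, Timp1, the upstream Mmp12 start site or the downstream Mmp7 start site. Only these exact letters were searched, so the related string TGAGTAA in the Timp1 window was not counted. The Timp1 window holds 3 matches to CAGGAAG, a letter string bound by ETS factors, found in 13.3% of all promoters. The Mmp12 window belongs to the downstream of its RefSeq start sites. A match describes the letters only. Of the 6 genes with the motif, Mmp1b, Mmp7 and Mmp10 had no read. Mmp3, Mmp12 and Mmp13 were not called in the main edgeR fit, and their values are described below.

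The main question of the design for these genes was how their RNA differs between KO and WT ventricles. CPM was above every WT library in every KO library for 7 of the 35 tested members, Timp1, Mmp3, Mmp8, Mmp14, Mmp19, Adamts2 and Adamts8, against 5.03% of the 15261 genes. For 0 members was it below WT in all KO libraries, against 2.28% of genes. With replicate 1 of both vehicle groups left out, a choice made after seeing the data, 8 members were higher without overlap (10.2% of all genes), those 7 and Adamts1, and 2 were lower (7.51% of all genes), Mmp15 and Adamts17. In the fit over all groups with the genotype effect averaged over treatments (edgeR's quasi-likelihood test with Benjamini-Hochberg adjustment over all genes), Mmp8, which entered the test only through its KO libraries, was the only member called higher at an adjusted p under 0.05, where 0.505% of all genes were, and 0 members were called lower, where 0.0328% of genes were. Without replicate 1 of both vehicle groups edgeR called 1 member, Mmp3, among 25 genes in all (0.159% of those tested). At an unadjusted p under 0.05, 10 members were higher (10.6% of all genes) and 3 lower (5.94% of all genes), namely Adamts3, Adamts7 and Mmp15. DESeq2 called 9 members (4.94% of all genes): Timp1, Mmp3, Mmp8, Mmp12, Mmp14, Mmp19, Adamts2 and Adamts8 higher and Adamts7 lower. The median log2 fold change was 0.31 over the 35 members and 0.00 over all genes tested.

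**Figure D2:**
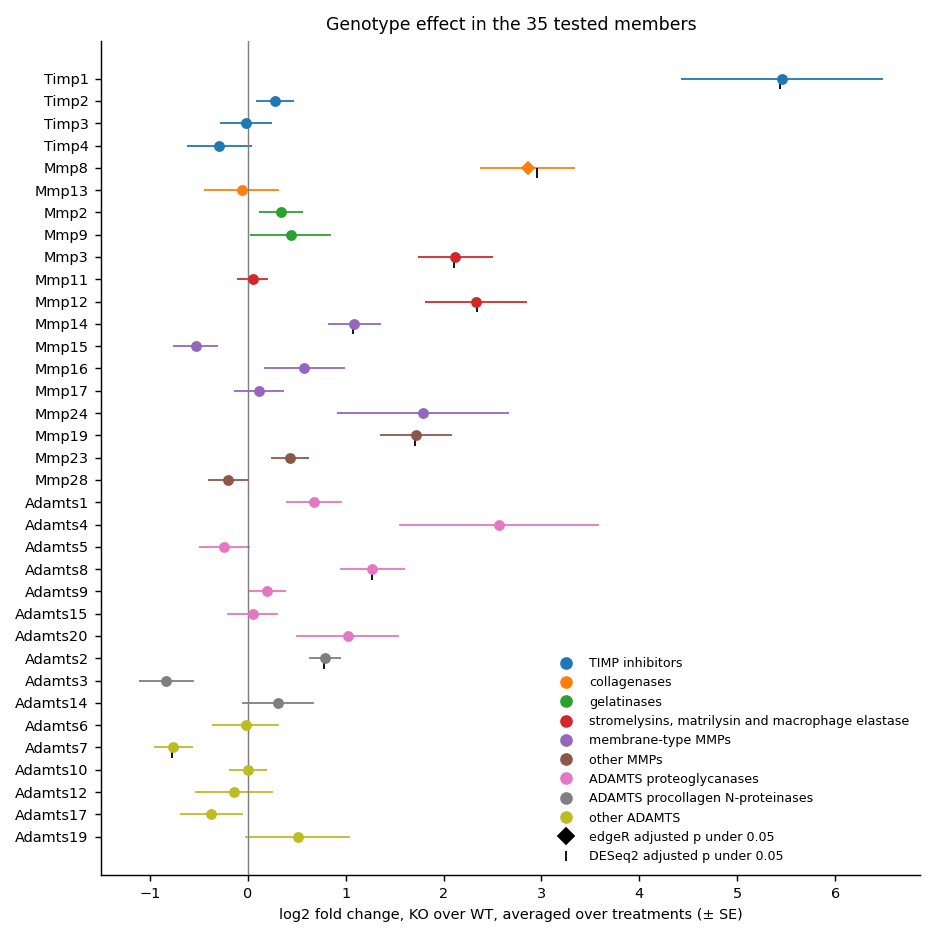
Log2 fold change of KO over WT averaged over treatments, with its standard error, for the 35 tested members, coloured by role. The diamond marks Mmp8, the member called by edgeR, and ticks mark the 9 members called by DESeq2; Timp1 lies farthest right at 5.46 and Adamts3 farthest left at -0.83.

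Among the inhibitors, the KO difference lay in Timp1. TIMP-1 is the secreted, inducible inhibitor of most MMPs and also acts as a growth factor. Timp1 (chromosome X, 20870166 to 20874735, plus strand, inside Syn1 on the opposite strand) was at 3.18 and 1.35 CPM in WT vehicle, 3.07 and 0.911 CPM in WT ifetroban, 337 and 10.1 CPM in KO vehicle and 96.8, 31.9 and 21.2 CPM in KO ifetroban. All 5 KO libraries were above all 4 WT libraries, and the KO values themselves spanned from 10.1 to 337 CPM. The log2 fold change averaged over treatments was 5.46 ± 1.03 (SE), with an edgeR adjusted p of 0.0580, which missed the threshold. Without KO vehicle replicate 1 it was 3.41, with an edgeR adjusted p of 0.0712, while the difference of mean log2 CPM was 4.58 over all libraries and 4.41 and 3.98 within the low and high length classes.

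The genes whose CPM was most like Timp1 over the 9 libraries, by Pearson correlation of log2 CPM, were Gm49339 (0.993), Aldh1a2 (0.992), which makes retinoic acid, and Cd53 (0.992), a leukocyte tetraspanin. Among members Mmp19 came first (0.980, rank 23 of 15260), then Mmp3 (0.966). These coefficients describe 9 libraries that share their genotype difference and KO vehicle replicate 1.

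The other inhibitors did not follow Timp1. TIMP-2, which also takes part in the activation of pro-MMP-2 by MMP-14 at the cell surface, was encoded by RNA at 92.1 and 116 CPM in WT vehicle, 112 and 123 in WT ifetroban, 104 and 173 in KO vehicle and 102, 120 and 167 CPM in KO ifetroban. Timp2 values overlapped between genotypes, with a log2 fold change of 0.28 ± 0.195 and an edgeR adjusted p of 0.480. Timp4, known for its expression in heart, was at 61.3 and 26.7 CPM in WT vehicle, 52.2 and 29.3 in WT ifetroban, 42.0 and 25.1 in KO vehicle and 36.1, 20.8 and 50.9 CPM in KO ifetroban. Its groups overlapped as well, with a log2 fold change of -0.29 ± 0.331.

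Timp3, whose product is held in the matrix and also inhibits ADAMTS enzymes and TACE, was at 236 and 155 CPM in WT vehicle, 317 and 160 in WT ifetroban, 173 and 264 in KO vehicle and 170, 163 and 291 CPM in KO ifetroban. Genotypes overlapped fully (log2 fold change -0.02 ± 0.267). Instead the libraries fell into 236 to 317 CPM in 4 of them, 1 in each group, and 155 to 173 CPM in the other 5. The same 4 libraries (WT vehicle replicate 1, WT ifetroban replicate 1, KO vehicle replicate 2 and KO ifetroban replicate 3) had the highest Dbp, a circadian output gene, at 141 to 229 CPM against 21.6 to 92.2 CPM, and the lowest Arntl, a core clock gene of opposite phase, at 2.38 to 3.84 CPM against 11.8 to 23.8 CPM. Adamts4 went the opposite way, at 0.359 to 1.01 CPM in those 4 libraries and 2.54 to 42.6 CPM in the other 5. Over the 9 libraries the Pearson correlation with the log2 ratio of Dbp to Arntl was 0.89 for Timp3, -0.85 for Adamts4 and between -0.66 and 0.58 for the other tested members. Of the 15226 tested genes that are not members, 1.59% had a correlation beyond 0.8 in either direction. Clock genes and Adamts4 were chosen here after their values were seen, and collection times are not given in the sources used here.

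**Figure D3:**
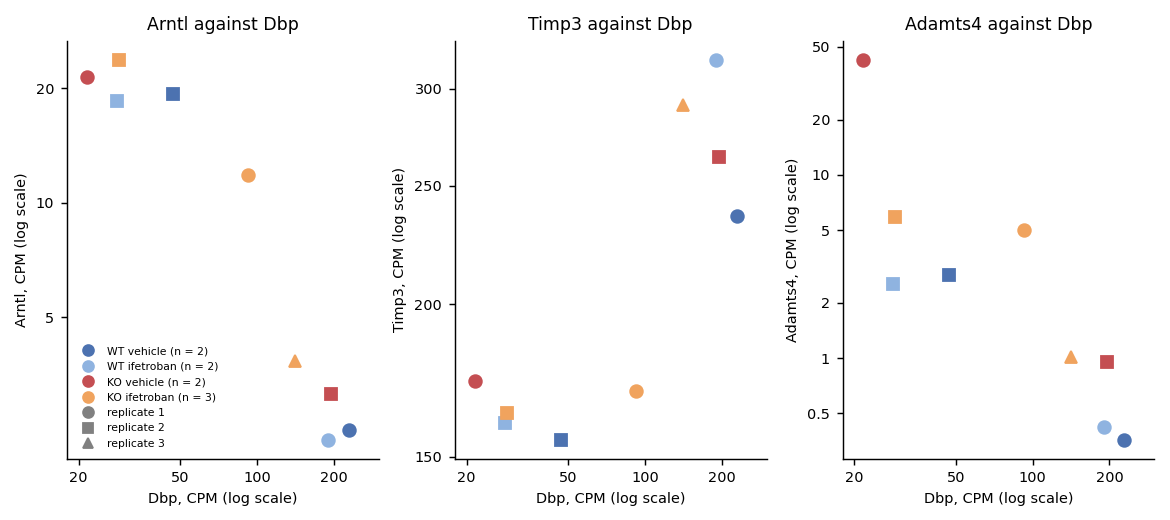
CPM of Arntl, Timp3 and Adamts4 against CPM of Dbp, both on log axes, 1 point per library. The 4 libraries with Dbp at 141 CPM or more have Timp3 at 236 CPM or more and Adamts4 at 1.01 CPM or less, and they come from all 4 groups.

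Of the collagenases, which cut the triple helix of fibrillar collagen, Mmp8 was the one called higher in KO. MMP-8 is best known as the collagenase of neutrophil granules. Mmp8 (chromosome 9, 7558456 to 7568485, plus strand) had 3 and 6 reads in WT vehicle, 1 and 1 in WT ifetroban, 20 and 12 in KO vehicle and 19, 21 and 12 in KO ifetroban, or 0.0384 to 0.232 CPM in WT and 0.465 to 0.931 CPM in KO. Every KO library was above every WT library, at read counts that are low throughout. With 0 WT and 5 KO libraries over the filter's threshold, it could be tested only because it was higher in KO, so its call is no independent support for the difference. Its log2 fold change was 2.86 ± 0.485, with an edgeR adjusted p of 0.0451. Summed over genotypes, 84 against 11 reads gave a ratio of 6.04 after scaling by gene counts, with an exact 95% counting interval of 3.21 to 12.6. The call was lost when any library other than KO vehicle replicate 2 was left out (edgeR adjusted p 0.0887 to 0.275 in those 8 fits, 0.00602 without KO vehicle replicate 2), and the difference of mean log2 CPM was 2.03 over all libraries and 1.80 and 1.93 within the low and high length classes.

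The neutrophil marker list summed to 3.21 to 19.7 CPM in WT and 22.5 to 245 CPM in KO, and 6 of its 12 genes passed the filter. Lcn2 alone held 220 of the 245 CPM in KO vehicle replicate 1. It held 18.8 of 28.1 CPM in KO ifetroban replicate 3 and 8.21 of 19.7 CPM in WT vehicle replicate 1. The gap between genotypes in the sum rests on that gene. Csf3r, the receptor of the neutrophil growth factor G-CSF, was at 0.911 to 3.03 CPM in WT and 3.85 to 8.79 CPM in KO, the 1 tested gene of the list without overlap. S100a8 (0.307 to 2.21 against 1.32 to 6.31 CPM), S100a9 (0.475 to 4.11 against 2.44 to 7.63 CPM), Cxcr2 (0.0792 to 0.719 against 0.582 to 3.09 CPM), Retnlg (0 to 1.03 against 0.621 to 1.15 CPM) and Lcn2 (1.23 to 8.21 against 7.62 to 220 CPM) reached higher in KO with overlap. The other 6, Mpo, Elane, Camp, Ngp, Ltf and Ly6g, were at 0 to 0.205 CPM in every library. The part of these cells in the Mmp8 difference was not tested. Mmp13, the other detected collagenase, was at 0.308 to 0.773 CPM in WT and 0.397 to 1.14 CPM in KO (log2 fold change -0.06 ± 0.384).

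The gelatinases, which cut denatured collagen and basement membrane, overlapped between genotypes. Mmp2 was at 47.8 and 59.3 CPM in WT vehicle, 54.2 and 57.7 in WT ifetroban, 46.7 and 97.1 in KO vehicle and 48.6, 69.3 and 82.4 CPM in KO ifetroban. The KO values reached below and above the narrow WT range, and the log2 fold change was 0.34 ± 0.227 (edgeR adjusted p 0.460). Mmp9, the gelatinase of leukocytes, was at 1.28 to 5.10 CPM in WT and 2.17 to 4.47 CPM in KO (log2 fold change 0.44 ± 0.415). Its difference of mean log2 CPM was 0.55 over all libraries and 1.46 and 0.08 within the low and high length classes.

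Stromelysin-1, a broad protease that also activates other proMMPs, is the product of Mmp3 (chromosome 9, 7445822 to 7455975, plus strand). Mmp3 was at 3.95 and 3.40 CPM in WT vehicle, 3.38 and 3.17 in WT ifetroban, 31.6 and 6.59 in KO vehicle and 11.8, 11.7 and 12.4 CPM in KO ifetroban. WT values spanned 3.17 to 3.95 CPM and every KO library was above them. Its log2 fold change of 2.12 ± 0.385 had an edgeR adjusted p of 0.0529. Without KO vehicle replicate 1 the log2 fold change was 1.36 with an edgeR adjusted p of 0.00827, so that Mmp3 and not Mmp8 was the member called there.

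Mmp12 (chromosome 9, 7344381 to 7369499, plus strand, overlapping Mmp1b on the opposite strand) encodes the elastase of macrophages. It was at 0.359 and 0.734 CPM in WT vehicle, 1.19 and 0.317 in WT ifetroban, 4.37 and 1.07 in KO vehicle and 5.47, 3.44 and 3.10 CPM in KO ifetroban. A single pair of libraries overlapped, KO vehicle replicate 2 lying below WT ifetroban replicate 1. Its log2 fold change was 2.33 ± 0.518 with an edgeR adjusted p of 0.0787, and 1.66 without KO vehicle replicate 1. The macrophage and monocyte list summed to 203 to 272 CPM in WT and 400 to 498 CPM in KO, with 11 of 14 listed genes higher in every KO library than in any WT library, and their part in the Mmp12 difference was not tested. Mmp11, stromelysin-3, stayed within 5.40 to 7.90 CPM in all libraries (log2 fold change 0.05 ± 0.160).

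Among the membrane-type MMPs, Mmp14 and Mmp15 differed in sign. Mmp14 (chromosome 14, 54431612 to 54445364, plus strand), which encodes MT1-MMP, a cell-surface collagenase and activator of pro-MMP-2, was at 11.0 and 22.3 CPM in WT vehicle, 15.9 and 22.5 in WT ifetroban, 58.4 and 28.0 in KO vehicle and 36.0, 38.3 and 27.2 CPM in KO ifetroban. All KO values lay above all WT values, with a log2 fold change of 1.09 ± 0.273 and an edgeR adjusted p of 0.105. With replicate 1 of both vehicle groups left out the fold change was 0.57. The difference of mean log2 CPM was 1.06 over all libraries and 1.81 and 0.69 within the low and high length classes.

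Mmp15, which encodes MT2-MMP and was the highest MMP per length, was at 107 to 184 CPM in WT and 60.8 to 140 CPM in KO, with overlap (log2 fold change -0.53 ± 0.229, edgeR adjusted p 0.289). Mmp16 and Mmp17 overlapped between genotypes, at 0.257 to 1.01 and 2.06 to 4.09 CPM over all libraries. Mmp24 had 2 to 34 reads and overlaps BC029722 on the opposite strand. It was at 0.462 and 0.193 CPM in WT vehicle, 0.0767 and 0.0792 in WT ifetroban, 1.58 and 0.159 in KO vehicle and 0.888, 0.123 and 0.155 CPM in KO ifetroban, so that KO vehicle replicate 1 and KO ifetroban replicate 1 alone exceeded WT.

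Of the remaining MMPs, Mmp19 (chromosome 10, 128790910 to 128800824, plus strand), which encodes a widely expressed MMP of basement membrane substrates, was at 2.67 and 2.47 CPM in WT vehicle, 3.41 and 2.42 in WT ifetroban, 18.8 and 5.08 in KO vehicle and 9.12, 6.35 and 5.20 CPM in KO ifetroban. KO and WT values did not overlap, and the log2 fold change was 1.72 ± 0.369 with an edgeR adjusted p of 0.0739. Without KO vehicle replicate 1 it was 1.11. As a difference of mean log2 CPM it was 1.49 over all libraries and 1.81 and 1.05 within the low and high length classes. Mmp23 and Mmp28 were at 5.94 to 12.5 and 3.74 to 6.22 CPM with overlap between genotypes.

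**Figure D4:**
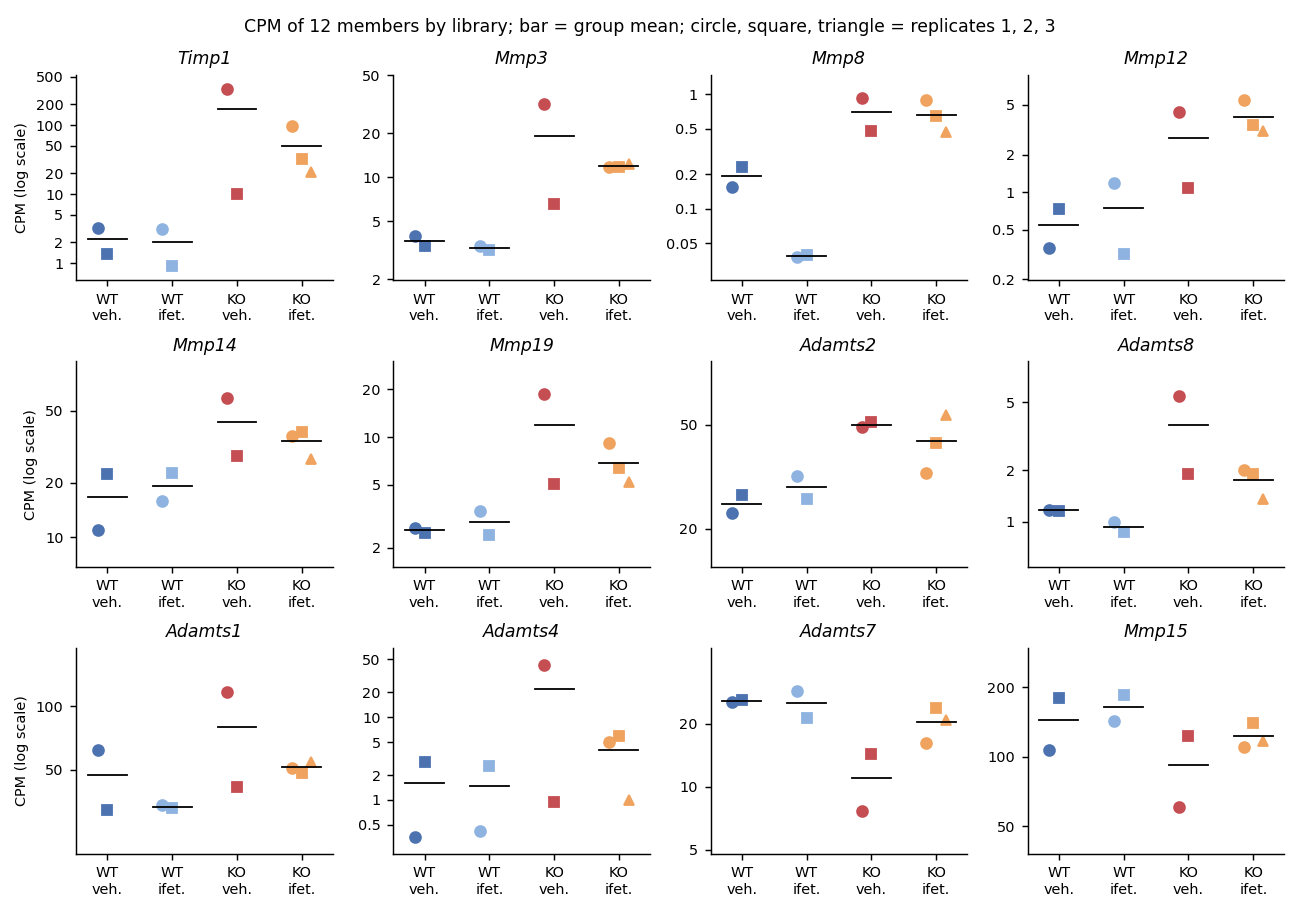
CPM (log axis) of 12 members in the 4 groups, 1 point per library, with the group mean as a bar. In Timp1, Mmp3, Mmp8, Mmp14, Mmp19, Adamts2 and Adamts8 every KO point lies above every WT point. KO vehicle replicate 1 is the highest library in Timp1 (337 CPM), Mmp3 (31.6 CPM), Mmp8 (0.931 CPM) and Mmp14 (58.4 CPM). It is also the highest in Mmp19 (18.8 CPM), Adamts1 (117 CPM), Adamts4 (42.6 CPM) and Adamts8 (5.44 CPM), but not in Mmp12, Mmp15, Adamts2 or Adamts7.

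The procollagen N-proteinases remove the amino-terminal propeptide of fibrillar procollagens so that fibrils can form. Adamts2 (chromosome 11, 50602084 to 50807573, plus strand) was at 22.9 and 26.9 CPM in WT vehicle, 31.8 and 26.1 in WT ifetroban, 48.9 and 51.1 in KO vehicle and 32.8, 42.4 and 54.6 CPM in KO ifetroban. The lowest KO library, at 32.8 CPM, was just above the highest WT library. The log2 fold change was 0.79 ± 0.161 with an edgeR adjusted p of 0.0633, and it ranged from 0.68 to 0.87 over the fits that each left out a library. Without KO vehicle replicate 1 it was 0.81.

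Adamts3, a related N-proteinase with pro-VEGF-C among its substrates, had its low values in KO. It was at 3.59 and 6.03 CPM in WT vehicle, 4.45 and 4.08 in WT ifetroban, 1.35 and 2.22 in KO vehicle and 2.10, 4.14 and 4.58 CPM in KO ifetroban. The 3 lowest libraries were KO libraries in which long transcripts were low, and the other 2 KO libraries lay within the WT range. The log2 fold change was -0.83 ± 0.284 (edgeR adjusted p 0.205). The difference of mean log2 CPM was -0.75 over all libraries and -0.93 and -0.13 within the low and high length classes. Adamts14 was at 0.565 to 2.33 CPM with overlap.

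Of the proteoglycanases, which cut versican and aggrecan, Adamts8 did not overlap between genotypes. It was at 1.18 and 1.16 CPM in WT vehicle, 0.997 and 0.872 in WT ifetroban, 5.44 and 1.91 in KO vehicle and 2.01, 1.90 and 1.36 CPM in KO ifetroban. The log2 fold change was 1.27 ± 0.332 with an edgeR adjusted p of 0.116, and 0.81 without KO vehicle replicate 1. As a difference of mean log2 CPM it was 1.04 over all libraries and 1.17 and 0.64 within the low and high length classes. Adamts20 had 1 to 20 reads, at 0.0513 and 0.270 CPM in WT vehicle, 0.230 and 0.475 in WT ifetroban, 0.419 and 0.596 in KO vehicle and 0.280, 0.429 and 0.776 CPM in KO ifetroban, with overlap.

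Adamts1 and Adamts4, inducible versicanases, were highest in KO vehicle replicate 1. Adamts1 was at 62.0 and 32.2 CPM in WT vehicle, 34.2 and 32.9 in WT ifetroban, 117 and 41.7 in KO vehicle and 51.2, 48.5 and 54.3 CPM in KO ifetroban, so that WT vehicle replicate 1 alone of the WT libraries lay within the KO range. Adamts4 (chromosome 1, 171250421 to 171260637, plus strand) was at 0.359 and 2.86 CPM in WT vehicle, 0.422 and 2.54 in WT ifetroban, 42.6 and 0.953 in KO vehicle and 5.0, 5.89 and 1.01 CPM in KO ifetroban. Its log2 fold change of 2.57 ± 1.02 (edgeR adjusted p 0.261) was 0.32 without KO vehicle replicate 1. Its difference of mean log2 CPM was 1.91 over all libraries and 3.79 and 0.70 within the low and high length classes. Adamts5, Adamts9 and Adamts15 overlapped between genotypes, at 18.4 to 50.2, 18.6 to 37.6 and 5.83 to 15.7 CPM. Adamts1 and Adamts4 were chosen for full values after these were seen.

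Adamts7, which cuts the cartilage protein COMP and is known for a role in vascular remodelling, was low in KO vehicle. It was at 25.5 and 26.0 CPM in WT vehicle, 28.6 and 21.4 in WT ifetroban, 7.68 and 14.4 in KO vehicle and 16.2, 23.7 and 20.9 CPM in KO ifetroban. Both KO vehicle values were below every other library, and 1 KO ifetroban value, 23.7 CPM, lay within the WT range. The log2 fold change was -0.76 ± 0.200 with an edgeR adjusted p of 0.118. As a difference of mean log2 CPM it was -0.70 over all libraries and -1.06 and -0.18 within the low and high length classes. Adamts6, Adamts10, Adamts12, Adamts17 and Adamts19 overlapped between genotypes, with log2 fold changes from -0.37 to 0.51.

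**Figure D5:**
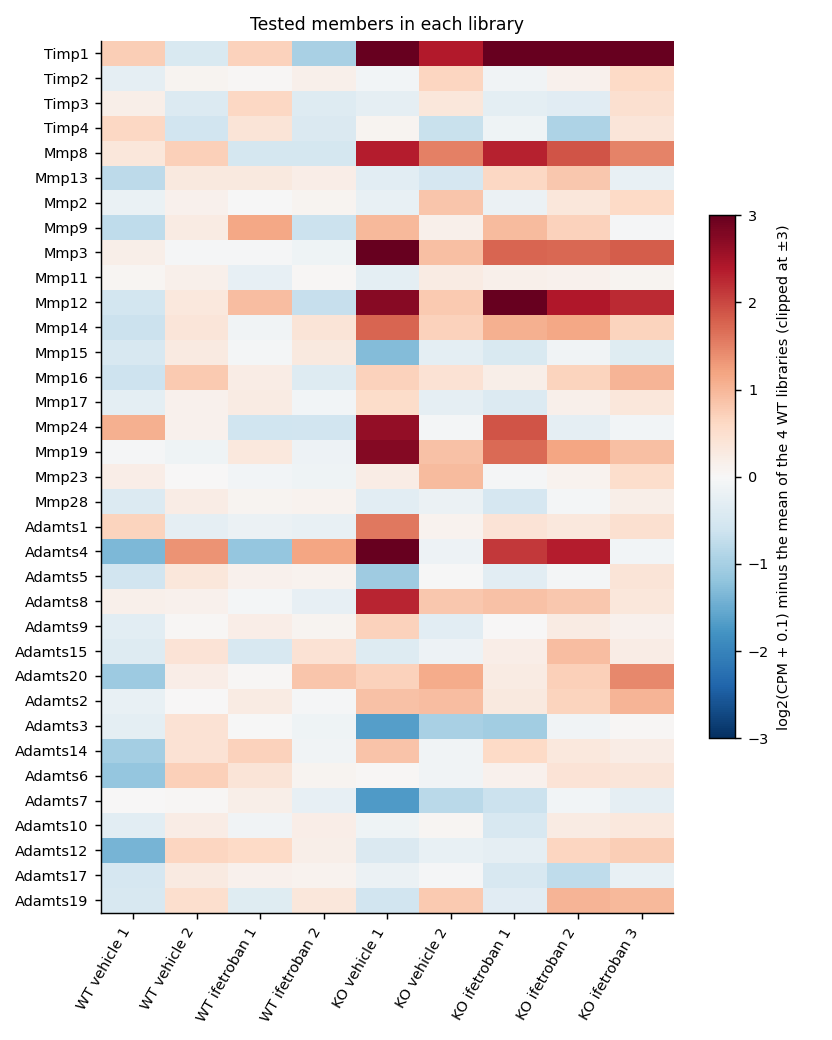
Log2(CPM + 0.1) of the 35 tested members in each library minus the mean of the 4 WT libraries, clipped at ±3, with members ordered by role. Timp1, Mmp8, Mmp3, Mmp12 and Mmp19 are above the WT mean in all 5 KO libraries, and Timp3 and Adamts4 vary within each group.

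The genotype difference was then taken within each treatment. Under vehicle, 0 members were called by edgeR (0.0524% of all genes), 11 had an unadjusted p under 0.05 (12.5% of all genes) and DESeq2 called 6 (2.48% of all genes). CPM of 10 members was higher in both KO vehicle libraries than in both WT vehicle libraries (16.8% of all genes) and that of 2, Adamts3 and Adamts7, was lower in both (18.2% of all genes). The smallest unadjusted p-values of edgeR were those of Adamts2 (log2 fold change 1.01 ± 0.237, adjusted p 0.222), Mmp3 (2.37 ± 0.562, adjusted p 0.222) and Timp1 (6.29 ± 1.52, adjusted p 0.222). In this comparison WT vehicle replicate 1 and KO vehicle replicate 1 each make up 1 of 2 libraries of their group. Without KO vehicle replicate 1 the fold changes were 1.04 for Adamts2, 0.85 for Mmp3 and 2.19 for Timp1.

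Under ifetroban, 0 members were called by edgeR (0.0131% of all genes), 6 had an unadjusted p under 0.05 (4.70% of all genes) and DESeq2 called 2, Mmp3 and Mmp12 (0.452% of all genes). CPM of 12 members was higher in all 3 KO ifetroban libraries than in both WT ifetroban libraries (16.1% of all genes), and that of 2, Mmp15 and Adamts17, was lower (12.9% of all genes). The smallest unadjusted p-values of edgeR were those of Mmp8 (log2 fold change 3.92 ± 0.739, adjusted p 0.543), Mmp3 (1.87 ± 0.526, adjusted p 0.683) and Mmp12 (2.39 ± 0.697, adjusted p 0.697). For Mmp8 this rests on 52 against 2 reads, a ratio of 17.2 with an exact 95% counting interval of 4.53 to 146. The samples of this comparison include neither KO vehicle replicate 1 nor WT vehicle replicate 1, although the spread was estimated over all 9 libraries. With only these 2 groups in the fit, edgeR called Mmp3 among 12 genes in all (0.0816% of those tested).

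The other question was whether ifetroban changed these genes. In KO, 0 members were called by edgeR (0% of all genes) and 0 by DESeq2 (0.0197% of all genes), while 3 had an unadjusted p under 0.05 (5.02% of all genes). These were Adamts7 (log2 fold change 0.87 ± 0.279), Adamts3 (1.01 ± 0.401) and Adamts8 (-1.06 ± 0.415), each with an edgeR adjusted p of 0.688. Without KO vehicle replicate 1 the log2 fold changes were 0.49, 0.71 and -0.12, and without KO vehicle replicate 2 they were 1.41, 1.44 and -1.62. With a length class term Adamts3 was at 0.33. Adamts7 was at 16.2 to 23.7 CPM in KO ifetroban and 7.68 and 14.4 CPM in KO vehicle, without overlap. CPM of 4 members was higher in every ifetroban than every vehicle library, Mmp13, Adamts6, Adamts7 and Adamts15 (8.38% of all genes), and that of 1, Adamts17, was lower (7.58% of all genes). Read counts were low for Adamts17 (13 and 17 with vehicle, 10, 12 and 15 with ifetroban) and Mmp13 (10 and 10 against 21, 37 and 13). Timp1 was at 337 and 10.1 CPM with vehicle and 21.2 to 96.8 CPM with ifetroban in KO, so the ifetroban values lay between the 2 vehicle values.

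In WT, 0 members were called by edgeR (0% of all genes) and by DESeq2 (0%), and 1 had an unadjusted p under 0.05 (1.26% of all genes), Mmp8 at a log2 fold change of -2.19 ± 0.889 from 9 reads with vehicle and 2 with ifetroban. CPM of 1 member, Adamts9, was higher in both ifetroban libraries (14.9% of all genes) and that of 6 was lower in both (16.5% of all genes). The interaction of genotype and ifetroban gave 0 calls by edgeR (0%) and by DESeq2 (0%). At an unadjusted p under 0.05 it gave 1 member (1.38% of all genes), Adamts7, with a difference of log2 fold changes of 0.92 ± 0.402, which was 0.53 and 1.45 when replicate 1 or replicate 2 of KO vehicle was left out. Averaged over genotypes, ifetroban gave 0 member calls by edgeR (0%) and by DESeq2 (0.00655% of all genes), and 0 members had an unadjusted p under 0.05 (5.11% of all genes). These contrasts share their groups with the genotype contrasts and are not independent of them. With 2 or 3 libraries a group, a difference that missed the threshold is not shown to be absent.

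Genes that act with the members were taken from lists, again in the genotype effect averaged over treatments and with edgeR's adjusted p. Of 24 tested matrix substrates, 7 were called higher in KO and 0 lower, where 0.505% and 0.0328% of all genes were. A positive fold change was found in 19 of the 24, and the median log2 fold change was 0.60. At an unadjusted p under 0.05 12 passed, and DESeq2 called 12. The 7 were the collagen chains Col1a1 (0.94 ± 0.149), Col3a1 (1.11 ± 0.188) and Col5a2 (0.97 ± 0.154), the glycoproteins Fn1 (1.51 ± 0.254) and Tnc (5.06 ± 0.849), and the proteoglycans Vcan (1.21 ± 0.203) and Bgn (0.87 ± 0.129), each with an adjusted p between 0.0324 and 0.0451. Without KO vehicle replicate 1, 2 substrates were called, Bgn and Tnc, and without replicate 1 of both vehicle groups 1, Fn1. Fibrillar procollagens are the substrates of ADAMTS2, and versican that of ADAMTS1 and ADAMTS4. Of 22 tested proteases of other families, 17 had a positive fold change. The 1 called higher was Ctss, the elastolytic cathepsin S (1.50 ± 0.211, adjusted p 0.0304). Adam12 (2.15 ± 0.489, adjusted p 0.0822) and Adam8 (3.55 ± 0.820, adjusted p 0.0842) came next, 9 of the 22 passed at an unadjusted p under 0.05 and DESeq2 called 3. Ctss stayed called without KO vehicle replicate 1 and without replicate 1 of both vehicle groups.

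Of 15 tested genes of activation, cell-surface control and clearance, 0 were called, 12 had a positive fold change and the median was 0.54 (0.23 without KO vehicle replicate 1). The smallest adjusted p-values were those of the plasminogen activator Plat (0.63 ± 0.141, 0.0787), Thbs1 (3.0 ± 0.677, 0.0800) and the inhibitor Serpine2 (0.56 ± 0.132, 0.0898). The 7 ADAMTS-like proteins, which lack the protease domain, had 0 calls and a median of 0.05. At an unadjusted p under 0.05, these 2 lists held 6 and 0 genes, and DESeq2 called 4 and 0. Over all genes, as above, 10.6% were higher and 5.94% lower at that unadjusted p, and DESeq2 called 4.94%.

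Lists of cytokines and of AP-1 and NF-kappa-B factors came last. Of 8 tested cytokines, all 8 had a positive fold change and 1 was called higher, Tgfb2 (1.44 ± 0.185, adjusted p 0.0248). Tgfb2 was at 8.89 to 9.50 CPM in WT and 18.1 to 38.5 CPM in KO. At an unadjusted p under 0.05 7 of the 8 passed, DESeq2 called 5, and the median log2 fold change was 2.08 (1.02 without KO vehicle replicate 1). Il1b was at 0.115 to 1.90 CPM in WT, 1.51 to 7.76 CPM in 4 KO libraries and 37.0 CPM in KO vehicle replicate 1. Il6 showed the same library apart, at 17.5 CPM against 0 to 1.73 CPM in the other 8. Of 13 genes of the AP-1 and NF-kappa-B factors 0 were called, 12 had a positive fold change and the median was 0.75 (0.10 without KO vehicle replicate 1). Fosl1, a Fos family member, was at 8.19 CPM in KO vehicle replicate 1 and 0 to 1.59 CPM in the other 8, and Fos was at 93.5 CPM in WT vehicle replicate 1 and 143 CPM in KO vehicle replicate 1 against 5.45 to 62.1 CPM in the other 7. At an unadjusted p under 0.05, 4 of these 13 genes passed, and DESeq2 called 1. For both lists the shares over all genes were 16.5% at that unadjusted p of edgeR, 4.94% called by DESeq2 and 49.5% with a positive fold change. The part of these factors in the differences of Mmp3, Mmp12 and Timp1 was not tested.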

How the data were processed

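Polyadenylated RNA of left ventricle was measured in 9 libraries of 4 groups. The authors deposited raw read counts per gene, made with STAR 2.5.2b and HTSeq on GRCm38 per the submitters' processing notes; the annotation release is not given in the sources used here. Rows naming no gene held 26.6% to 31.9% of reads and were left out. The reverse-strand column, with 14.5 times the counts of the forward column, was used. GENCODE M21 gave symbols, lengths and coordinates (GRCm38, counted from 1) for 49412 of 49671 identifiers.

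The counts were fitted with edgeR 4.0.16 in R 4.3.3 (TMM scaling, filterByExpr, quasi-likelihood test, 1 coefficient per group, 7 two-sided contrasts, Benjamini-Hochberg adjustment over 15261 genes, called at an adjusted p under 0.05), tested on simulated data. Fold changes carry a prior count of 0.125, and their standard errors were calculated back from the F statistic. DESeq2 1.42.0, no low-count filter, length corrections, a replicate block and leaving out libraries were alternatives; the clock-gene covariate was chosen after seeing the data. Correlations used log2 CPM with a prior count of 2. TPM is from counts and exonic length. Counting intervals cover counting error only.

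Members, roles, lists and the marker lists were chosen with earlier results of these data known. Named with values in every library were Timp1 to Timp4, Mmp2, Mmp14, each called member, each member without overlap between all KO and all WT, and the 3 members with the smallest p per contrast. Of each list of related genes, called genes and up to 3 with the smallest p were named; others were chosen after their values were seen.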

Additional observations from a re-analysis of the deposited data

How the results depend on the processing

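Of 802 alternative values for 42 fold changes of members, 693 kept their direction and their side of the threshold and 3 reversed, all in Adamts4. Its log2 fold change under vehicle ranged from -0.80 (without KO vehicle replicate 1) to 5.88 (without WT vehicle replicate 2) when single libraries were left out. With replicate 1 of both vehicle groups left out it was -1.57 under vehicle and -0.07 averaged over treatments. The cause was not tested. For the genotype effect averaged over treatments, members called were 9 with DESeq2 (754 genes in all), 14 with no low-count filter (1684), 4 with length offsets (140), 0 with a length class term (9) and 0 to 12 when each library was left out in turn, where the 12 came without KO vehicle replicate 2 (2098). With the clock-gene covariate, chosen after seeing the data, 1 member was called, Mmp14 (0.98, edgeR adjusted p 0.0492) in place of Mmp8 (2.78, edgeR adjusted p 0.0657). Under vehicle the counts were 6 with DESeq2 (378 genes in all), 11 with no low-count filter (1195) and 0 to 11 without single libraries, 11 of them without KO vehicle replicate 2 (1734). Under ifetroban they were 2 with DESeq2 (69), 7 with no low-count filter (428), 1 with the compared groups only (12), 1 without replicate 1 of both vehicle groups (14), and 0 to 1 without single libraries. For ifetroban in KO they were 3 with no low-count filter (428) and 0 to 4 without single libraries, 4 of them without KO vehicle replicate 2 (449). No low-count filter gave 2 for the interaction (73) and 2 for ifetroban averaged over genotypes (290). Where a group keeps 1 library, that library is assumed to vary like the others. Of the genes tested, the averaged genotype effect called 4.94% with DESeq2 and 6.18% with no low-count filter. It called 0.919% with length offsets and 0.059% with a length class term. Under vehicle DESeq2 and no filter called 2.48% and 4.39%, and under ifetroban 0.452% and 1.57%. No filter called 1.57% for ifetroban in KO, 0.268% for the interaction and 1.06% for ifetroban averaged over genotypes. It tested 27246 genes, against 15261 with DESeq2.

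Deviations of same-numbered libraries correlated at 0.00108 to 0.478, not all over 0.1, so the numbers were not taken to pair libraries. With the replicate number as a block, the averaged genotype effect called 6 members, and 531 genes in all (3.48% of those tested). Depth limits Mmp8, Mmp24 and Adamts20, with at most 21, 34 and 20 reads in a library. It also limits Adamts17 (9 to 22 reads), Adamts19 (4 to 25 reads), Mmp16 (5 to 26 reads) and Mmp13 (6 to 37 reads).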

Other observations

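Some other clock genes divided the libraries like Dbp and Arntl did beside Timp3 and Adamts4, and others overlapped. Per2 was at 20.4 to 29.7 CPM in the 4 libraries with the highest Dbp and 4.70 to 8.60 CPM in the other 5, and Ciart was at 15.4 to 25.3 CPM against 0.982 to 6.92 CPM. Npas2, another clock gene, went the other way, at 1.53 to 2.87 CPM against 3.69 to 6.80 CPM. Per1 (43.8 to 85.1 against 16.7 to 44.6 CPM) and Nr1d1 (128 to 156 against 64.3 to 136 CPM) overlapped between the sets, as did Clock and Cry1. KO ifetroban replicate 1 lay between the others in Dbp (92.2 CPM) and Arntl (11.8 CPM). They were picked with their values in view, and the split crosses both genotype and treatment.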
